A study of Mus musculus with 3 samples.

Results

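The genes described here are 44 mouse genes of DNA replication and deoxynucleotide synthesis, chosen by name for their role, with earlier results of these data known. They were read in cultured primary hepatic stellate cells of 3 genotypes. All 44 matched an Entrez number in the RefSeq gene table, and all 44 were listed in each of the 3 libraries, among 17870 genes listed in any of them. Replication starts where the origin recognition complex, Cdc6 and Cdt1 load the ring of Mcm2 to Mcm7 onto DNA, and Cdc45 and the GINS proteins turn that ring into the working helicase. Primase and polymerase alpha begin each strand, the Rfc loader places the Pcna clamp, and polymerases delta and epsilon extend the DNA. The genes are classically switched on by E2F factors late in G1, once cyclin-dependent kinases release E2F from the RB protein. Stellate cells are pericytes of the liver sinusoid that rarely divide in healthy liver and can enter the cell cycle in injury and in culture on plastic.

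There was 1 library for each genotype, wild type, TLR4-/- and CD44-/-, all from male mice on C57BL/6 that were 24 weeks old. Stellate cells were obtained from the livers by collagenase and pronase digestion with a density step, and macrophages were removed with beads against CD11b. The cultures had 3 days with 10% serum and then 24 hours without it, so every level below was read after serum withdrawal. TLR4 senses bacterial lipopolysaccharide and CD44 binds hyaluronan, and the series title asks how lacking either one affects these cells. The labels name neither the knockout alleles nor the number of cells, and do not say whether animals were pooled.

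The libraries held 21460725 to 24078669 expected counts, the read numbers that RSEM assigns to genes. Cd44 stood at 17.2 FPKM (fragments per kilobase of transcript, scaled to library depth) in wild type and 2.57 in the CD44-/- library. Tlr4 stood at 15.8 FPKM in wild-type cells and 10.9 in the library with the TLR4-/- label, a ratio of 0.693, so that library is called by its label throughout. All 10 stellate cell markers examined were listed in every library, among them Lrat, the retinol-esterifying enzyme, at 150.3 to 267 FPKM. The series text speaks of triplicates and does not name CD44-/-, so genotypes follow the sample labels, and what a library pools is unknown. Each genotype has 1 library, so the differences below lack a replicate check and were not tested across genes. Intervals are 95% exact binomial intervals on the counts and cover counting error only.

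The promoters are shown first, because some of these genes hold letters there that their choice did not use. RefSeq windows of GRCm38.p6, 250 bases before to 50 bases after each transcription start, were at hand for 36 of the 44 genes. They were searched on both strands for the E2F-type letters TTTCCCGC, TTTCGCGC, TTTGCCGC and TTTGGCGC. Of 42 windows, 15 (35.7%) held a match, against 2.26% of 32851 windows of all genes. By gene, 15 of 36 (41.7%) held one, against 2.60% of 27025 genes. The 44 are not alone in this, since 11 of 40 windows (27.5%) of the replication factors outside the 44, listed further down, held a match. The 12 stretches below are those of the matched subunits of the Mcm2 to Mcm7 ring and of every other matched gene that stood at least 1.5-fold above wild type in a knockout-labelled library on the scale of FPKM + 1, the size rule used throughout. Capitals mark the E2F-type letters, read 5′ to 3′ along the gene's strand, and a match on the opposite strand appears as its reverse complement.
Mcm3, chr1:20820280-20820299, minus strand: tccgtgGCGGGAAAacttgg
Mcm3, chr1:20820263-20820280, minus strand: ggaagtTTTGGCGCcaag
Mcm5, chr8:75109350-75109373, plus strand: aagaacTTTCGCGCCAAAacgtcc
Mcm6, chr1:128359798-128359821, minus strand: tatgctTTTGGCGCGAAAagtgcg
Mcm6, chr1:128359739-128359758, minus strand: gacgggTTTGGCGCgaagta
Mcm7, chr5:138172035-138172054, minus strand: cgaaccGCGGGAAAcagggt
Mcm7, chr5:138171854-138171873, minus strand: acgacgTTTCGCGCcaattt
Cdc6, chr11:98908007-98908026, plus strand: tggagaGCGGGAAAtcgcct
Pold1, chr7:44548766-44548782, minus strand: cttgtgGCGGGAAAagc
Pold3, chr7:100121472-100121491, minus strand: aagctgTTTCCCGCcggcgg
Pole2, chr12:69228167-69228186, minus strand: gcggtgGCGCCAAAtcgcga
Uhrf1, chr17:56304122-56304141, plus strand: gtcgggTTTCGCGCgcccag

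In Mcm5 and Mcm6 matches on both strands overlapped, and Mcm6 held a further match nearer the start. Matches lay from 185 bases before to 39 bases after the start, and 13 of 19 stretches lay no more than 100 bases before it or after it. By role, 5 of 7 helicase genes with a window held a match, as did 3 of 5 origin loading genes and 4 of 7 polymerase and primase genes. None of the 4 deoxynucleotide genes Rrm1, Rrm2, Tyms and Tk1 held one, and 1 of 8 clamp, loader and single-strand binding genes did. Such a match is a string of letters and not a measured binding site, and a window without one says nothing of E2F binding elsewhere. The windows of Mcm6, with 3 matches, of Mcm2, the ring subunit with the widest difference between libraries and no match, and of Rrm2, whose level stayed close to wild type in one library and below it in the other, are printed whole.
Mcm6, chr1:128359656-128359955, minus strand: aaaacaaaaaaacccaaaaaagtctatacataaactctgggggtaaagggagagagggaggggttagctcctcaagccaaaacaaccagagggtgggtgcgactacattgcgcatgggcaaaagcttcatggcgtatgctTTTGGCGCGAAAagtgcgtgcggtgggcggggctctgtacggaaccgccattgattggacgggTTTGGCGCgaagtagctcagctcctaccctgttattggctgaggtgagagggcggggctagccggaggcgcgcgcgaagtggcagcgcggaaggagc
Mcm2, chr6:88898731-88899030, minus strand: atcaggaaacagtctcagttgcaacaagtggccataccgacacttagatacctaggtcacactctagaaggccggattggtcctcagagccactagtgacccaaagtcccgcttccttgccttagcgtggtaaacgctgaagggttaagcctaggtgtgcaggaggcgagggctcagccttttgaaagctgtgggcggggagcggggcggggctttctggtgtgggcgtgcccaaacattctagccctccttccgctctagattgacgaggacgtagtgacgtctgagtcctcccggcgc
Rrm2, chr12:24708004-24708303, plus strand: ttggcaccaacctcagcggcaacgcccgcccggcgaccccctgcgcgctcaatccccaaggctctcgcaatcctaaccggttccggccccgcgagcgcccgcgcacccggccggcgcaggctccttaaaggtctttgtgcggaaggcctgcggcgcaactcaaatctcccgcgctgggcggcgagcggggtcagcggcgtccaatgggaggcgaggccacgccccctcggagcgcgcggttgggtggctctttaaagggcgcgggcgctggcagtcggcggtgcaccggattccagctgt

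The CCAAT box, a general promoter element common in cell cycle genes, was searched as CCAAT on both strands and was found in 57.1% of the members' windows against 37.4% of all windows. In 1 case, in Mcm7, its letters overlapped an E2F-type match. The letters TTTGAA, the core of the CHR element of mitotic genes, were found in 11.9% of the members' windows against 17.9% of all windows. In the 25 mitosis and G2 genes listed further down, 66.7% of 21 windows held TTTGAA and 4.76% held an E2F-type match.

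**Figure D1:**
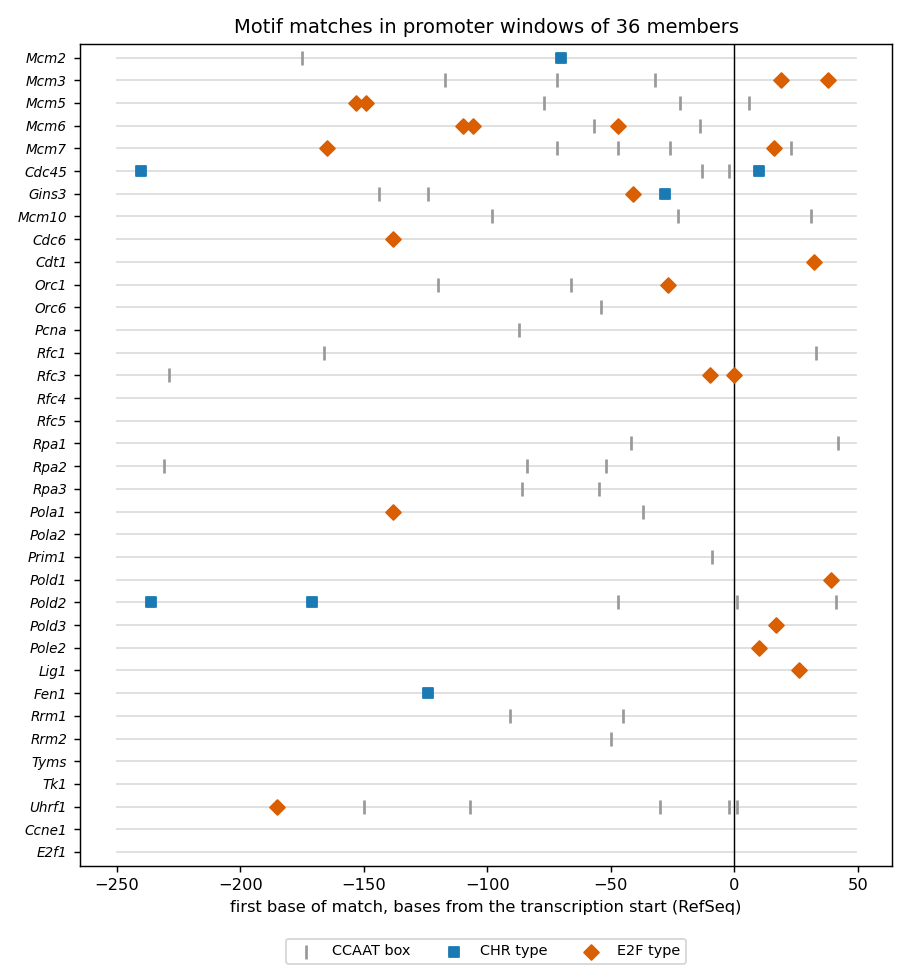
Positions of E2F-type, CHR-type (TTTGAA) and CCAAT matches in the promoter windows of 36 genes, by role from the helicase at the top to regulators at the bottom. The x axis is the distance in bases of the first base of a match from the RefSeq start, and windows of a gene with several starts are laid over each other. E2F-type matches lie between 185 bases before and 39 bases after the start.

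Most replication genes had more RNA in both knockout-labelled libraries than in wild type, by modest factors. In the library with the TLR4-/- label, 41 of the 44 genes lay above wild type and 3 below, against 53.9% and 45.8% of all 12098 genes with at least 1 FPKM in either library. Their median log2 ratio of FPKM + 1 was 0.43, against 0.03 over all those genes. In the CD44-/- library 39 of 44 lay above wild type and 5 below, against 54.7% and 45.1% of 12247 genes, and the median was 0.32, again against 0.03. At a 1.5-fold size rule on FPKM + 1, 9 of 44 were higher and 0 lower in the library with the TLR4-/- label, where 4.50% of all genes were higher and 7.13% lower. In CD44-/- 5 of 44 were higher and 0 lower, where 4.71% of all genes were higher and 5.32% lower. At 2-fold none of the 44 was past the rule in either direction, against 1.04% of all genes higher and 2.69% lower in the library with the TLR4-/- label, and 2.24% higher and 1.97% lower in CD44-/-.

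All 44 passed the level filter in each comparison, although Orc1 was under 1 FPKM in wild type and passed through the other library. The direction of Orc1 against wild type, counted above, was therefore set by the filter. Both comparisons use the same wild-type library, so a value that is low by chance there moves both. Wild type was the lowest library for 38 of the 44 genes (86.4%), against 36.1% of all 12371 genes that reached 1 FPKM anywhere. The library with the TLR4-/- label was the highest for 33 (75%, against 39.0% of all genes) and CD44-/- for 9 (20.5%, against 33.3%). In bulk RNA, the share of cycling cells in a culture, their phase and the level of these RNAs per cell cannot be told apart. The mitosis and G2 genes described further down had their highest sum in wild type.

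**Figure D2:**
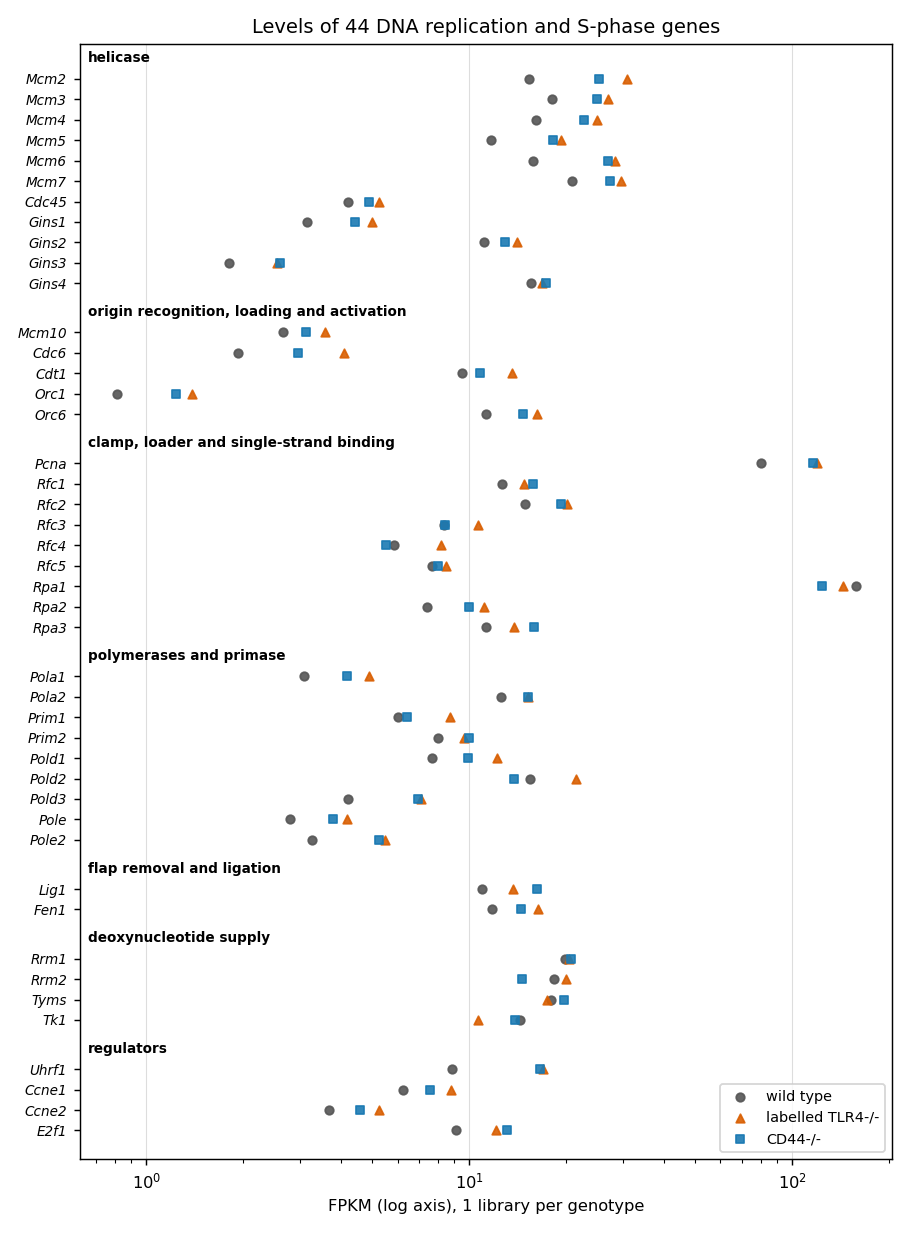
FPKM of each of the 44 genes in the 3 libraries on a log axis, grouped by role; each marker is 1 library. Wild type is leftmost for 38 genes, and Pcna and Rpa1 stand above 80 FPKM in every library.

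All 11 genes of the helicase group lay above wild type in both other libraries, with median log2 ratios of 0.53 and 0.39. Mcm2 stood at 15.3 FPKM in wild-type cells, 30.7 in the library with the TLR4-/- label and 25.3 in the CD44-/- library. It was 2.00-fold (1.87 to 2.15) and 1.65-fold (1.53 to 1.77) wild type in that order, and the knockout-labelled libraries also differed from each other by 1.22-fold (1.14 to 1.29). Mcm2 carries the histone-binding tail of the ring.

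Mcm6, a subunit of the ring's core, stood at 15.8, 28.3 and 26.8 FPKM in the same order. Its ratios to wild type were 1.80 (1.67 to 1.94) and 1.70 (1.58 to 1.84). Mcm5, which forms the ring's gate with Mcm2, stood at 11.7, 19.2 and 18.1 FPKM, with ratios of 1.65 (1.52 to 1.79) and 1.55 (1.43 to 1.69); the second was not past the size rule with median-of-ratios scaling (log2 0.57). For both genes the knockout-labelled libraries lay close together and wild type lay apart below.

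Mcm4, a core subunit with Mcm6 and Mcm7, stood at 16.1, 24.8 and 22.8 FPKM. Its ratio was 1.54 (1.44 to 1.65) in the library with the TLR4-/- label, just past the size rule and no longer past it with median-of-ratios scaling (log2 0.55), and 1.41 (1.32 to 1.52) in CD44-/-. Mcm3 stood at 18.0, 26.9 and 24.9 FPKM and Mcm7 at 20.8, 29.5 and 27.3 FPKM, both between the 1.5-fold lines in each comparison. All 6 subunits thus ran in one order, with wild type lowest and the library with the TLR4-/- label highest. For Mcm5 and Mcm6 the interval between the knockout-labelled libraries included no difference.

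The proteins of Mcm2 to Mcm7 work as 1 copy each in the ring, and their RNA levels per length were of like size. The highest subunit was 1.78 times the lowest in wild type, 1.60 times in the library with the TLR4-/- label and 1.505 times in CD44-/-. Summed over the 6, the level was 97.7 FPKM in wild-type cells, 159 in the library with the TLR4-/- label and 145 in the CD44-/- library.

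The partners that activate the ring varied among themselves. Cdc45, which ties the ring to GINS, stood at 4.21, 5.24 and 4.88 FPKM, and its interval in CD44-/- included no difference (1.16, 0.948 to 1.42). The 4 GINS genes do not share 1 level: Gins4 stood at 15.6, 16.8 and 17.3 FPKM and Gins3 at 1.81, 2.54 and 2.59 FPKM. Gins1 had a ratio of 1.59 (1.17 to 2.16) in the library with the TLR4-/- label on 68 reads in wild type, and 1.41 (1.02 to 1.95) in CD44-/-. Gins2 had ratios of 1.27 (1.08 to 1.49) and 1.17 (0.986 to 1.38).

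Among the genes that load and activate origins, Cdc6 differed most on the scale of FPKM + 1. Cdc6, the ATPase that recruits the ring to the origin complex, stood at 1.93 FPKM in wild-type cells, 4.09 in the library with the TLR4-/- label and 2.95 in the CD44-/- library. Its ratios to wild type were 2.12 (1.79 to 2.51) and 1.53 (1.28 to 1.83), and its RNA differed between the knockout-labelled libraries by 1.39-fold (1.19 to 1.61). On the FPKM + 1 scale, which pulls low genes toward 0, these were log2 ratios of 0.80 and 0.43.

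Cdt1, the partner of Cdc6 that is destroyed once replication starts, stood at 9.49, 13.6 and 10.8 FPKM, with log2 ratios of 0.48 and 0.17. Orc1, the cycle-regulated subunit of the origin complex, was the gene of the 44 with the lowest level, at 0.81, 1.39 and 1.24 FPKM. Orc6 stood at 11.2, 16.3 and 14.7 FPKM and Mcm10, which helps to start the fork, at 2.65, 3.58 and 3.13 FPKM. All 5 genes of the group were lowest in wild type and highest in the library with the TLR4-/- label. Between the knockout-labelled libraries, however, the intervals of Orc1, Orc6 and Mcm10 included no difference, as did that of Mcm10 in CD44-/- against wild type (0.980 to 1.42).

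Pcna, the sliding clamp, stood at 80.4 FPKM in wild-type cells, 120 in the library with the TLR4-/- label and 116 in the CD44-/- library. Its ratios were 1.49 (1.41 to 1.57) and 1.45 (1.37 to 1.53), just under the size rule on the log2 scale (0.57 and 0.53). Pcna is also a target of p53, as is Cdkn1a, the kinase inhibitor p21 that binds the clamp, and these lay on opposite sides of wild type. Cdkn1a stood at 303, 185 and 123 FPKM, 1.64-fold (1.59 to 1.68) and 2.46-fold (2.38 to 2.54) below wild type in the 2 libraries. The level of Pcna over that of Cdkn1a, a ratio within a library, was 0.265 in wild-type cells, 0.646 in the library with the TLR4-/- label and 0.944 in the CD44-/- library.

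The 5 clamp loader genes lay within 1.5-fold of wild type in both libraries. Rfc2 had ratios of 1.35 (1.21 to 1.51) and 1.29 (1.15 to 1.45) and the large subunit gene Rfc1 1.17 (1.09 to 1.25) and 1.24 (1.16 to 1.33). Rfc5 stood at 7.68, 8.45 and 8.03 FPKM, with both intervals including no difference. Rfc3 and Rfc4 separated the libraries, since both stood above wild type in the library with the TLR4-/- label, at 1.28 (1.07 to 1.52) and 1.40 (1.14 to 1.71). In CD44-/- their ratios were 1.01 (0.837 to 1.22) and 0.945 (0.752 to 1.19), and for Rfc3 the sign there turned with the scaling.

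The 3 RPA genes, whose proteins coat single-stranded DNA as a trimer, differed widely in level and in direction. Rpa1, the large DNA-binding subunit, stood at 157 FPKM in wild-type cells, 144 in the library with the TLR4-/- label and 124 in the CD44-/- library. Rpa2 stood at 7.40, 11.1 and 10.0 FPKM and Rpa3 at 11.3, 13.8 and 15.9 FPKM. Rpa1 was thus 21.2 times Rpa2 per length in wild type, 13.0 times in the library with the TLR4-/- label and 12.4 times in CD44-/-. Rpa1 lay below wild type in both other libraries, with ratios of 0.918 (0.894 to 0.943) and 0.786 (0.764 to 0.809). Rpa2 lay above it, with 1.497 (1.29 to 1.73) and 1.35 (1.16 to 1.57). The annotation places Gm47300 on the same strand within Rpa1, and whether reads of it are counted there was not tested.

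Polymerase genes had a median log2 ratio of 0.48 in the library with the TLR4-/- label and 0.34 in the CD44-/- library, and all 9 lay above wild type in the first. Pold1, the catalytic subunit of polymerase delta, stood at 7.66 FPKM in wild-type cells, 12.2 in the library with the TLR4-/- label and 9.94 in the CD44-/- library. Its ratios were 1.60 (1.44 to 1.77) and 1.30 (1.17 to 1.45). Pold3, an accessory subunit of the same enzyme, stood at 4.22, 7.08 and 6.94 FPKM, with 1.68 (1.45 to 1.94) and 1.64 (1.42 to 1.91). With median-of-ratios scaling Pold1 in the library with the TLR4-/- label (log2 0.57) and Pold3 in CD44-/- (log2 0.58) were no longer past the size rule.

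Pold2, the subunit that bridges those, stood at 15.4, 21.5 and 13.8 FPKM. It was 1.39-fold (1.25 to 1.55) wild type in the library with the TLR4-/- label but 0.897-fold (0.794 to 1.01) in CD44-/-. Pold2 was the 1 gene of 44 past the size rule between the knockout-labelled libraries, at 1.56-fold (1.39 to 1.74). In that comparison 5.56% of all 12168 genes were higher and 8.14% lower. Of the 44 genes 34 lay higher in the library with the TLR4-/- label than in CD44-/- and 10 lower, against 51.6% and 48.2% of all genes, with a median of 0.11. Counting intervals lay above no difference for 16 of the 44 and below it for 3, against 31.7% and 29.9% of 12118 genes. None reached 2-fold there, where 1.32% of all genes were higher and 3.44% lower.

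Pole2, an accessory subunit of polymerase epsilon, stood at 3.25, 5.49 and 5.25 FPKM, with ratios of 1.69 (1.35 to 2.11) and 1.62 (1.29 to 2.03). The first was not past the size rule with median-of-ratios scaling (log2 0.58). Its catalytic partner Pole had 1.5 (1.33 to 1.69) and 1.36 (1.20 to 1.54). In the polymerase alpha and primase complex, Pola1, which extends the primer, had 1.59 (1.40 to 1.81) and 1.36 (1.19 to 1.56), and Prim1, which makes it, 1.46 (1.22 to 1.74) and 1.07 (0.881 to 1.30). The other two subunits, Pola2 and Prim2, had ratios from 1.20 to 1.25 across both comparisons.

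For the joining of Okazaki fragments, Fen1, the flap nuclease, stood at 11.8, 16.3 and 14.4 FPKM, and Lig1, the replicative ligase, at 10.9, 13.7 and 16.2 FPKM. Lig1 was one of 9 genes highest in CD44-/-, where its ratio was 1.48 (1.35 to 1.63) against 1.25 (1.14 to 1.37) in the library with the TLR4-/- label.

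The 4 genes of deoxynucleotide supply lay on both sides of wild type. Their median log2 ratios were -0.0046 in the library with the TLR4-/- label and 0.01 in the CD44-/- library, and 2 of 4 lay above wild type in each. Rrm1, the large subunit of ribonucleotide reductase, stood at 19.8, 20.3 and 20.7 FPKM, with both intervals including no difference and a sign that turned with the scaling in the library with the TLR4-/- label. Rrm2, its S-phase subunit, stood at 18.3, 19.98 and 14.5 FPKM, a ratio of 0.795 (0.720 to 0.878) in CD44-/-.

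Tyms, which makes thymidylate, stood at 18.0, 17.4 and 19.7 FPKM. Tk1, the cytosolic thymidine kinase of cycling cells, stood at 14.4 FPKM in wild-type cells, 10.7 in the library with the TLR4-/- label and 13.9 in the CD44-/- library. Its ratio in the library with the TLR4-/- label was 0.743 (0.645 to 0.855), the lowest of the 44 there. Set against the ring, the summed level of Mcm2 to Mcm7 was 5.35 times that of Rrm2 in wild type, 7.98 times in the library with the TLR4-/- label and 9.99 times in CD44-/-.

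Of the regulators, Uhrf1, which reads half-methylated DNA behind the fork for the maintenance methylase, differed most. Uhrf1 stood at 8.82 FPKM in wild-type cells, 16.9 in the library with the TLR4-/- label and 16.6 in the CD44-/- library, 1.92-fold (1.75 to 2.09) and 1.88-fold (1.72 to 2.06) wild type. Dnmt1, that methylase, which is not among the 44, stood at 16.2, 22.9 and 23.3 FPKM. The E-type cyclins, which drive entry into S phase with Cdk2, had smaller ratios of 1.41 (1.21 to 1.64) and 1.21 (1.03 to 1.42) for Ccne1 and 1.42 (1.21 to 1.67) and 1.24 (1.05 to 1.47) for Ccne2. E2f1, the activator itself, stood at 9.11, 12.1 and 13.1 FPKM, with 1.33 (1.19 to 1.49) and 1.44 (1.28 to 1.61).

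**Figure D3:**
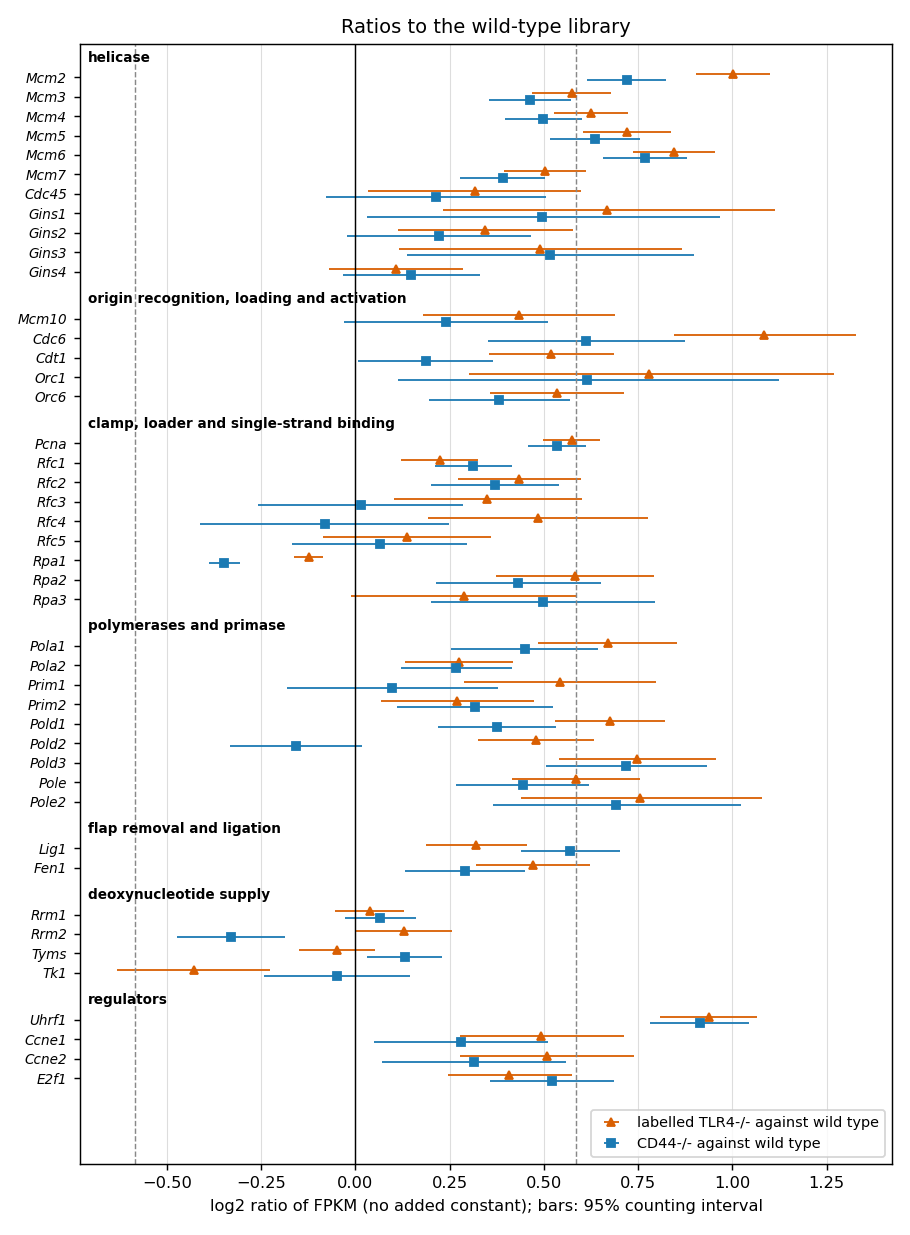
log2 ratio of FPKM to wild type for each gene, with no constant added; bars are 95% counting intervals and dashed lines mark 1.5-fold. In the library with the TLR4-/- label 37 of 44 intervals lie above no difference and 2 below, against 34.5% and 29.2% of 12029 genes with reads in both libraries, and in CD44-/- 31 above and 2 below, against 31.7% and 25.3% of 12192.

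Genes with an E2F-type match had higher median ratios to wild type than those without, given here as a description. In the library with the TLR4-/- label the medians were 0.55 over 15 genes with a match, which ranged from 0.30 to 0.87, and 0.33 over 21 without, from -0.40 to 0.96. In CD44-/- they were 0.43 and 0.18. Between the knockout-labelled libraries they were in the other order, at 0.09 with a match and 0.14 without. The ranges overlapped in both, and Mcm2, with no match, lay above every matched gene in the library with the TLR4-/- label.

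Most replication factors outside the 44 also lay above wild type. Of 39 such genes, 38 were measured. Of these, 31 lay above wild type in the library with the TLR4-/- label and 29 in the CD44-/- library, with medians of 0.37 and 0.24. Over all genes 53.9% and 54.7% lay above wild type, in that order. In the library with the TLR4-/- label 9 were at least 1.5-fold higher and 2 lower, against 4.50% and 7.13% of all genes. In CD44-/- 4 were higher and 1 lower, against 4.71% and 5.32%. Hells, a chromatin remodeller needed for DNA methylation, stood at 2.87 FPKM in wild-type cells, 8.77 in the library with the TLR4-/- label and 6.16 in the CD44-/- library. Its partner Cdca7 stood at 3.27, 9.41 and 4.79 FPKM. Cdc7, the kinase that fires loaded origins, stood at 2.21, 5.25 and 4.18 FPKM, while its activator Dbf4 stood at 8.98, 8.05 and 5.49 FPKM. Rnaseh2c, a subunit of the RNase that removes ribonucleotides, lay below wild type in the library with the TLR4-/- label, at 29.4, 17.2 and 29.0 FPKM. Top2a, the topoisomerase of chromosome separation, lay below it in both, at 12.9, 7.43 and 9.07 FPKM.

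Nucleotide synthesis genes outside the 44 separated the knockout-labelled libraries. Of 23 genes, 9 were at least 1.5-fold above wild type in the library with the TLR4-/- label and 0 below, with a median of 0.49, whereas in CD44-/- 0 passed in either direction and the median was 0.06. Over all genes 4.50% were higher and 7.13% lower in the first, and 4.71% higher and 5.32% lower in CD44-/-. Compared directly, 9 of 23 were higher in the library with the TLR4-/- label and 0 lower, against 5.56% and 8.14% of all genes. Cad, which starts pyrimidine synthesis, stood at 12.5 FPKM in wild-type cells, 21.2 in the library with the TLR4-/- label and 11.0 in the CD44-/- library. Dhodh, a later step of that pathway, stood at 3.98, 7.53 and 4.86 FPKM, and Ppat, which commits purine synthesis, at 3.88, 7.05 and 5.23 FPKM. Dctd, the deoxycytidylate deaminase, stood at 1.64, 5.28 and 1.84 FPKM.

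Genes that govern the switch into S phase lay on both sides of wild type. Of 17 measured E2F, RB and DREAM genes, 0 were higher at 1.5-fold in either library, where 4.50% and 4.71% of all genes were. Foxm1, a driver of mitotic genes, was the 1 lower one in the library with the TLR4-/- label, at 4.17 FPKM against 7.03. That count is near the share of all genes lower there, 7.13%. Rb1, which restrains E2F, stood at 6.51, 4.96 and 5.10 FPKM, and its relative Rbl1, itself an E2F target, at 3.35, 5.24 and 4.87 FPKM. The repressor gene E2f7 stood at 1.74, 1.75 and 1.78 FPKM and E2f8 at 2.87, 2.86 and 2.22, while E2f2 stayed under 1 FPKM.

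Of 16 measured G1 cyclins, kinases and inhibitors, 1 was at least 1.5-fold lower in the library with the TLR4-/- label (Cdkn1a) and 0 higher. The first count is near the share of all genes lower there, 7.13%, and 4.50% of all genes were higher. In CD44-/- 6 were lower and 1 higher, against 5.32% and 4.71% of all genes. Ccnd1, the cyclin that starts RB phosphorylation, stood at 98.5 FPKM in wild-type cells, 78.1 in the library with the TLR4-/- label and 31.0 in the CD44-/- library. The kinase inhibitor Cdkn2b stood at 29.2, 27.0 and 10.8 FPKM, and Cdkn1c at 1.17, 0.89 and 5.13 FPKM. A cyclin and some inhibitors of its kinase were therefore both lower in CD44-/-.

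Mitotic genes lay on the other side of wild type from the replication genes. Of 25 mitosis and G2 genes, 17 were at least 1.5-fold lower and 0 higher in the library with the TLR4-/- label, and 13 lower and 0 higher in CD44-/-, with medians of -0.79 and -0.66. Over all genes 7.13% were lower and 4.50% higher in the first, and 5.32% lower and 4.71% higher in the second. Cdc25c and Cenpf passed the filter through wild type alone in both comparisons, as did Cenpe in the first. Their direction there was set by the filter. Ccnb2, a mitotic cyclin, stood at 8.88, 1.38 and 2.83 FPKM and Mki67, the proliferation marker, at 5.26, 2.96 and 3.39 FPKM. Pttg1, the securin that delays the separation of sister chromatids, separated the other libraries, at 32.5, 29.5 and 5.24 FPKM. Ccna2, the cyclin of S phase and G2, stood at 10.3, 8.03 and 9.35 FPKM. Within each library, the summed level of Mcm2 to Mcm7 over that of the 25 genes, which no library scaling affects, was 0.472 in wild-type cells, 1.39 in the library with the TLR4-/- label and 1.40 in the CD44-/- library. The near equality of the last 2 ratios rests on Pttg1, which gave 29.5 of 114 FPKM in the library with the TLR4-/- label and 5.24 of 103 in CD44-/-. Of 23 mitotic genes measured between those libraries, 18 lay lower in the one with the TLR4-/- label and 5 higher. Of all genes 48.2% lay lower there and 51.6% higher. Cdc25c and Cenpf were under the filter in that comparison.

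**Figure D4:**
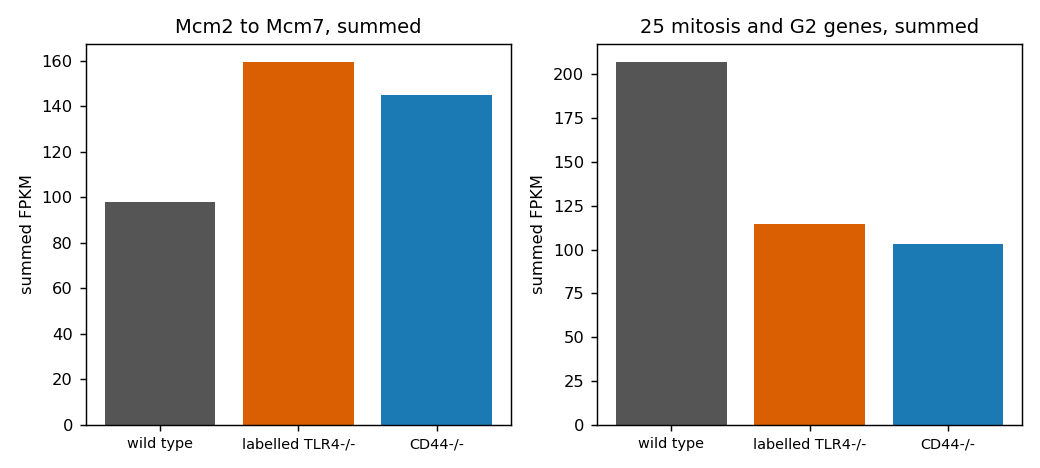
Summed FPKM of Mcm2 to Mcm7 (left) and of 25 mitosis and G2 genes (right), 1 bar per library. The ring sum is 97.7 in wild type against 159 and 145, and the mitotic sum 207 against 114 and 103. Pttg1 alone gives 29.5 of the 114 in the library with the TLR4-/- label and 5.24 of the 103 in CD44-/-.

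**Figure D5:**
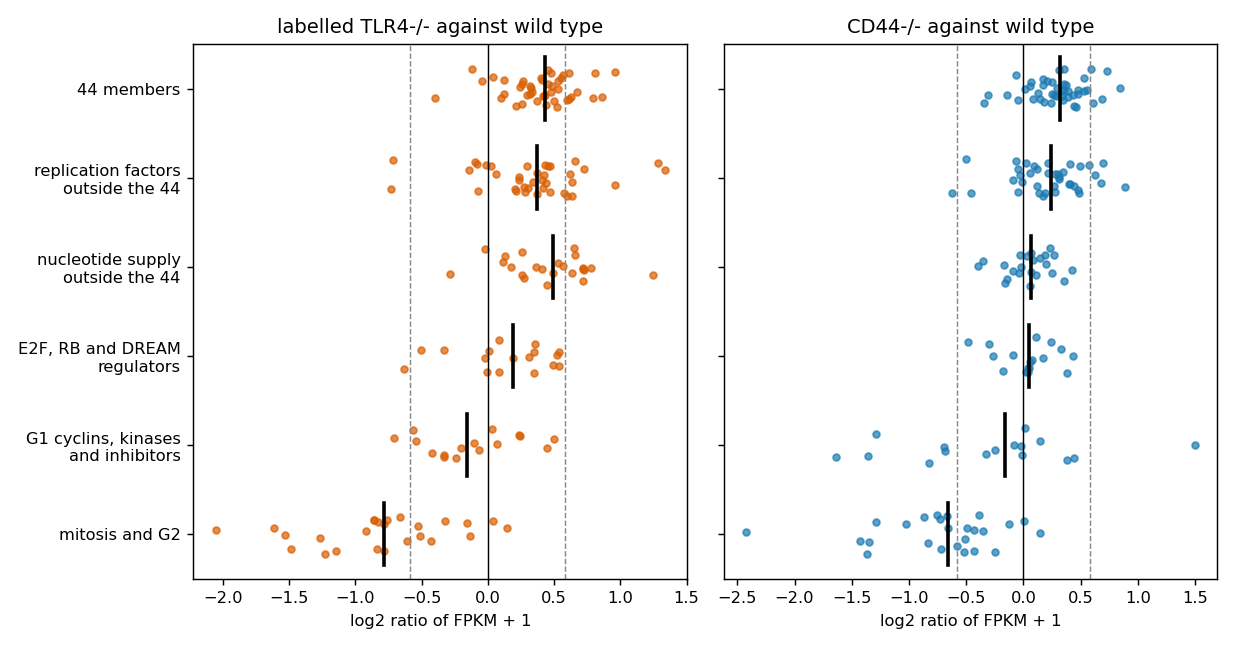
log2 ratio of FPKM + 1 to wild type for each measured gene of 6 lists; black bars are medians and dashed lines mark 1.5-fold. The 44 genes have medians of 0.43 and 0.32 and the mitotic genes -0.79 and -0.66 in the library with the TLR4-/- label and in CD44-/-.

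Replication-dependent histone genes could not be read well. Of 10 examined, 3 reached 1 FPKM in a comparison with wild type, and they belong to families of near-identical copies. Hist2h3b stood at 5.60, 0.66 and 4.51 FPKM, and that value is uncertain for this reason.

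Markers of other cells differed between the cultures beside these genes. The 16 macrophage markers summed to 55.3 FPKM in wild-type cells, 23.1 in the library with the TLR4-/- label and 568 in the CD44-/- library, with Timd4 listed in none, Fcgr1 listed in CD44-/- alone and Clec4f not listed in the library with the TLR4-/- label. All 13 of them that were measured were at least 1.5-fold above wild type in CD44-/-, against 4.71% of all genes. Adgre1, Marco, Vsig4, C1qa, C1qb and Ptprc passed the filter through CD44-/- alone, so their direction was set by the filter. In the library with the TLR4-/- label 7 of 7 measured macrophage markers lay below wild type, against 45.8% of all genes. Of these, Cd5l, C1qc, Tyrobp and Mpeg1 passed through wild type alone. Lyz2, which passed in every library, stood at 31.4, 11.1 and 362 FPKM. The 12 endothelial markers summed to 79.6, 25.5 and 38.0 FPKM, with none at 0. Egfl7 made up much of those sums, which were 48.2, 4.10 and 14.1 FPKM without it, and Vwf lay above wild type in CD44-/-, at 1.16 against 0.24 FPKM. The 8 hepatocyte markers summed to 10.6, 2.18 and 0.92 FPKM, with Tat not listed in wild type or CD44-/-, and Apoa1 and Hnf4a not listed in CD44-/-. The 7 lymphocyte markers summed to at most 0.29 FPKM in any library, with Cd2 and Ms4a1 listed in none. The part of other cells in the levels of the replication and mitotic genes was not tested.

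Some of the 44 genes share ground with others. In the GENCODE annotation of GRCm38, 17 overlap a gene on the opposite strand, and since no source says whether counting used strand, the reads of such pairs cannot be told apart. Of those, Pold1, which overlaps Gm44833, and Pole2, which overlaps Gm47545, were past 1.5-fold. Mcm7 overlaps the coding genes Cops6 and Ap4m1. Counts were not whole for Mcm5, Pola2, Tyms and E2f1, as happens where RSEM divides reads between genes. Mcm2, Mcm4, Mcm6, Cdc6, Pold2, Pold3 and Uhrf1 had whole counts and no overlapping gene. The coding gene Prkdc starts near Mcm4 on the opposite strand without overlapping it.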

How the data were processed

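RNA was sequenced from 3 libraries of cultured hepatic stellate cells, 1 per genotype. RSEM and the mm10 build are named per the submitters' processing notes, with no RSEM version. For each gene the authors deposited an expected count, an FPKM value and a transcript length, per the file headers. The lowest FPKM listed was 0.01, and an unlisted gene was taken as 0. Symbols came from the RefSeq table of GRCm38.p6.

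Ratios were computed as log2 of FPKM + 1; genes needed an FPKM of at least 1 in either library, and 1.5-fold was the size rule. Ratios quoted with intervals are FPKM ratios with no constant, with 95% Clopper-Pearson intervals on rounded expected counts (scipy 1.17.1). The steps were tested on simulated data. Besides a 2-fold rule, the alternatives were adding 0.1 before the log, filters at FPKM 5 or none, scaling by median of ratios, TPM, TMM-scaled CPM (edgeR 4.0.16), and calls whose counting interval also passed 1. All 44 genes are named, with up to 4 genes per list by size of ratio to wild type and a set chosen by role. The members and lists were chosen with earlier results of these data known. A comparison of protein sequences was planned and not run. Some genes of the lists are not reported here.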

Additional observations from a re-analysis of the deposited data

Results flagged for a closer look

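Rrm2 was set apart because it lay above wild type in the library with the TLR4-/- label (FPKM ratio 1.09, interval 1.001 to 1.20) and below it in CD44-/- (0.795, 0.720 to 0.878), with both counting intervals past no difference, the first narrowly. Its log2 ratio of FPKM + 1 between those libraries was 0.434. With 1 library per genotype this difference has no test, and both ratios share the wild-type library.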

How the results depend on the processing

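Across the alternatives the counts of genes at least 1.5-fold lower stayed at 0 in all 3 comparisons, and the medians kept their sign. The median log2 ratio ran from 0.39 to 0.48 in the library with the TLR4-/- label against wild type and from 0.29 to 0.37 in CD44-/- against wild type. The count of genes higher at 1.5-fold ran from 6 with median-of-ratios scaling to 12 with 0.1 added in the first. Of all genes 3.79% and 6.65% were higher there under those settings. In CD44-/- against wild type, where the main value was 5, it was 3 with median-of-ratios scaling, 6 with TPM and 7 with 0.1 added. The share of all genes higher there was 4.45%, 5.95% and 6.75% under those settings, and the 3 of 44 lies near its share. With median-of-ratios scaling Mcm4, Pold1 and Pole2 in the first and Mcm5 and Pold3 in the second were no longer past the rule. At 2-fold the count of genes higher was 0 in each of the 3 comparisons, and a stricter rule can only lower a count or leave it. That 0 also depends on the added constant of 1. With no constant, the FPKM ratios of Mcm2 and Cdc6 were 2.00 and 2.12 in the library with the TLR4-/- label against wild type. No scaling moved the median of all genes by more than 0.039. The sign turned under some setting for Rrm1 in the library with the TLR4-/- label, Rfc3 in CD44-/- and Pola2 between the knockout-labelled libraries. Leaving out a library was not possible with 1 per genotype. No paired analysis was possible because the labels give each genotype 1 library and no shared replicate number.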
